A study of Mus musculus with 48 samples.

Results

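The untreated Wapl-degron line was compared with the parental line it is set against, to ask whether carrying the degron alters V(D)J joining before Wapl is removed. The libraries were chosen by their titles alone: 3 JH-bait libraries of the untreated Wapl-degron line and 3 of the untreated parental line, 6 of the 48 samples of the series. Both lines are mouse pro-B lines transformed by v-Abl, with the genotype OsTIR1 (the plant adaptor that an auxin degron needs), Emu-Bcl2 (a survival transgene) and RAG1 deficiency, and the degron line carries the Wapl-degron in addition. RAG was returned to both by RAG1/2 retrovirus, and both were arrested with 3 uM of the Abl kinase inhibitor STI-571 for 4 days, with neither auxin (IAA) nor doxycycline (Dox). Set beside them for scale were 3 untreated libraries of a degron line with a single Igh allele, and 3 libraries of the degron line given 3 uM STI-571 for 1 day and then also 150 uM IAA and 2 mg/mL Dox for 3 days, all other alleles and agents being as above. The labels do not say whether replicates were separate cultures or how many clones a line represents, so p-values measure only the spread between these libraries, which may be technical. Wapl protein was not measured here.

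In developing B cells the RAG endonuclease binds the JH segments of the immunoglobulin heavy chain locus (Igh), first joins a D segment to JH, and then joins a VH segment to the DJH joint. RAG cuts at recombination signal sequences, each a heptamer and a nonamer held apart by a spacer, and reaches distant segments while cohesin extrudes chromatin loops past it. Wapl takes cohesin off chromatin, so its loss lets loops grow longer, and v-Abl pro-B lines with Wapl present are known for using mainly the VH genes nearest to D. An untreated degron line is therefore the control on which a depletion experiment rests.

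Junctions were mapped by LAM-HTGTS, in which a primer in a JH segment (the bait) is extended across each joint into the DNA joined to it (the prey). On chromosome 12 of the mm9 mouse genome build the Igh genes lie on the minus strand, except Ighv5-8 and Ighv1-13 in the annotation used. JH lies at 114666725 to 114668044, the D region at 114668739 to 114766265 and the VH region at 114812453 to 117238672. The 6 libraries held 3424603 junctions, of which 3304439 lay in the D region, 31451 in the VH region and 61545 in the JH region.

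The segments that carried most of the joints end in the following signals, printed on the coding (minus) strand from the mm9 genome, with the 20 bases before the heptamer first and with heptamer and nonamer in capitals. For Ighd4-1 and Ighd2-3, whose annotated genes are shorter than that, these bases begin upstream of the gene. Ighd4-1 is the D gene nearest to JH and Ighd1-1, 51.6 kb upstream of it, was the most used. Ighd2-3 was the most used gene of the Ighd2 family, and Ighv5-2 and Ighv2-2 were the leading VH genes.
Ighd4-1 (chr12:114668711-114668758): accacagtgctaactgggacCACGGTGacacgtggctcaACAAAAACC
Ighd2-3 (chr12:114713583-114713630): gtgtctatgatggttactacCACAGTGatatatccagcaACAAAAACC
Ighd1-1 (chr12:114720353-114720400): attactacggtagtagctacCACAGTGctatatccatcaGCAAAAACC
Ighv5-2 (chr12:114816676-114816734): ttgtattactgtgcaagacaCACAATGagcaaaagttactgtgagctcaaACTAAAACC
Ighv2-2 (chr12:114826439-114826497): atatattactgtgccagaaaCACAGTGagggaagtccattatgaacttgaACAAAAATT
All 21 annotated D genes had a heptamer starting CAC beside their JH-side end, read on the minus strand, and 8 had the full CACAGTG. Of 116 VH genes 93 had CAC there, 73 of them CACAGTG, with Ighv5-8 and Ighv1-13 read the same way despite their plus-strand annotation. The D genes were read with a spacer of 12 bases and the VH genes with one of 23.

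The libraries differed in bait before any line was compared. Replicates 2 and 3 of both lines had nearly the same mix, with the Ighj2 bait at 51.9% and 53.1% of parental and 51.9% and 53.2% of degron junctions. Parental replicate 1 instead held 92.3% Ighj4 and 7.67% Ighj2 junctions and none from Ighj1 or Ighj3. Degron replicate 1 held 58.8% Ighj1, 27.8% Ighj3 and 13.3% Ighj4 junctions and none from Ighj2. Both replicate 1 libraries thus stood apart, in different ways. Several results that turn on them are therefore given below also without them or within single baits. All 6 libraries contained the Ighj4 bait. The read names put parental replicate 1 in a run of its own, parental replicates 2 and 3 in another and the 3 degron libraries in yet another, so sequencing run and line cannot be told apart. Depth ran from 218080 to 647488 junctions in parental and from 238249 to 871857 in degron libraries, the shallowest being replicate 1 in both, and no read name was shared between libraries.

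**Figure D1:**
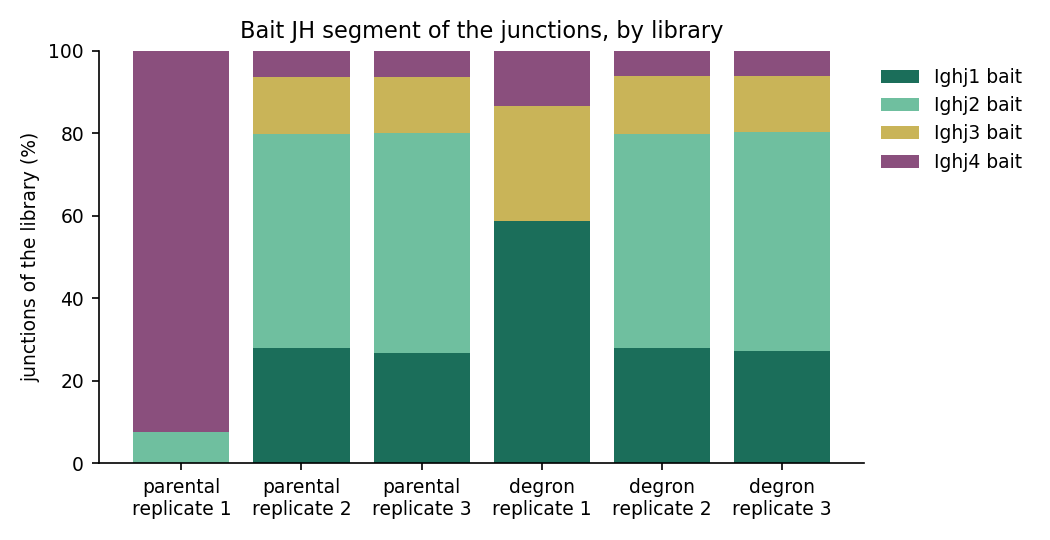
Stacked bars give the percent of the junctions of each library whose bait end lay in Ighj1, Ighj2, Ighj3 or Ighj4. Replicates 2 and 3 of both lines look alike, whereas parental replicate 1 is 92.3% Ighj4 and degron replicate 1 has no Ighj2.

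No segment of the locus passed the test for a difference between the lines. The test covered 115 segments with at least 10 junctions over the 6 libraries: 25 D genes, 16 intervals between D genes, 2 bins between D and VH, 62 VH genes and 10 VH sites without an annotated gene, each taken by strand. By limma voom with Benjamini-Hochberg adjustment, 0 of 115 segments (0%) had an adjusted p under 0.05, the smallest being 0.883, and 2 had an unadjusted p under 0.05. Those 2 rested on few junctions: an interval between Ighd2-6 and Ighd5-7 with 14 parental junctions and 1 degron junction, and a VH site without a gene with 0 parental and 11 degron junctions. A quasi-binomial model of each segment also called 0. The median log2 fold change, degron over parental, was -0.03 over all 115 segments. In 5 of 115 segments (4.35%) the libraries of the lines did not overlap, 4 of them lower in the degron line (3.48% of those tested).

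**Figure D2:**
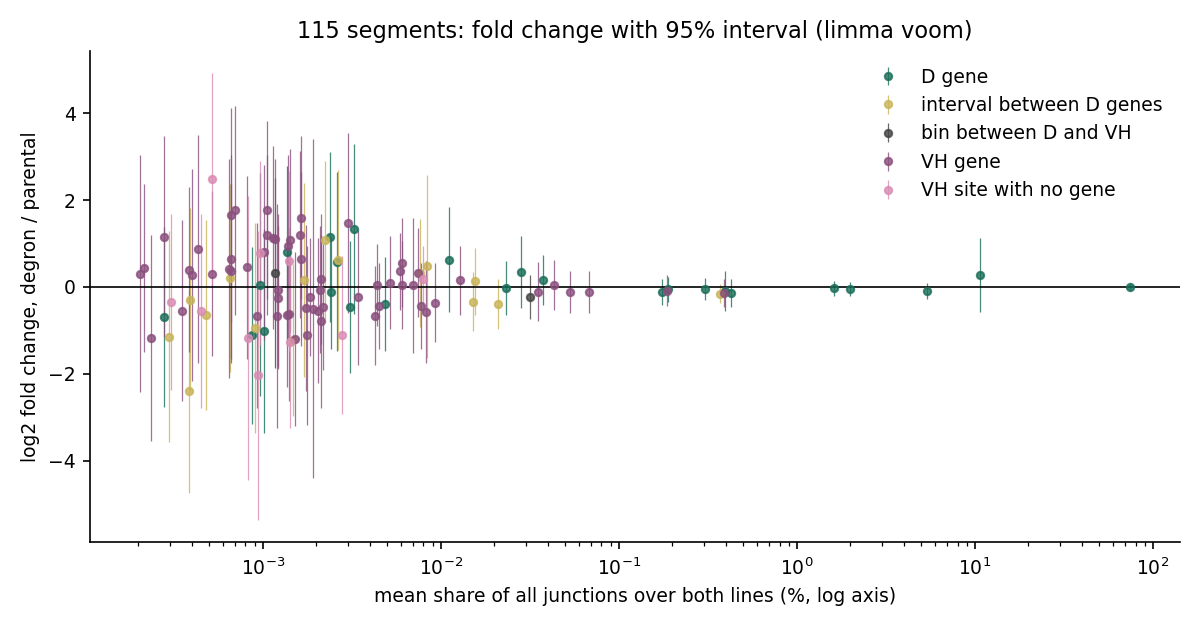
Each point is 1 of the 115 segments, with its mean share of all junctions over both lines (log axis) and its log2 fold change, degron over parental, with the 95% interval of limma voom. The interval of Ighd1-1, the most used, runs from -0.10 to 0.09, that of Ighd4-1, also much used, from -0.59 to 1.12, and that of a rarely used, unannotated distal site from -2.92 to 0.72.

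D genes took most junctions in every library. The D region held 97.4%, 96.5% and 96.6% of junctions in the parental libraries and 95.3%, 96.7% and 96.3% in the degron libraries. The groups overlapped, and the difference between the means, 96.8% ± 0.483 and 96.1% ± 0.739 (SD, n = 3 each), did not pass (two-sided exact permutation test, p = 0.3, where 3 libraries against 3 allow no p below 0.1). The 21 share tests of this comparison were adjusted together and the smallest adjusted p was 0.750. JH-region junctions, which make up much of the rest, were 0.835%, 1.79% and 1.70% in parental and 2.86%, 1.68% and 1.95% in degron libraries, with the extremes in the 2 replicate 1 libraries. Without both of these the means were 96.5% in both lines for D, a difference of -0.05 percentage points, and 1.75% in parental and 1.81% in degron libraries for JH.

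Ighd1-1, the D gene in common use that lies farthest from JH, held 82.4%, 71.9% and 71.9% of all junctions on the deletional strand in parental and 74.9%, 73.3% and 73.5% in degron libraries. Only parental replicate 1 was high. The log2 fold change was -0.0055 (SE 0.0433, 95% interval -0.10 to 0.09, limma adjusted p = 0.948). Without both replicate 1 libraries it was 0.03 (interval 0.02 to 0.03) with an adjusted p of 1.23e-07. It was also 0.03 when segments with a single junction entered the fit of all 6 libraries (adjusted p = 0.00422). The unweighted means of these 6 libraries went the other way, at 75.4% in parental and 73.9% in degron libraries, with overlap. Both fits contain replicates 2 and 3 of each line, so they are not independent. They called 2 of 112 segments (1.79%) and 1 of 241 segments (0.415%). In replicates 2 and 3 the shift is that from 71.9% to between 73.3% and 73.5% of junctions.

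Ighd4-1, whose position next to JH lets it join without scanning across the D cluster, took 2.97%, 13.4% and 13.6% of all junctions in parental and 9.02%, 12.7% and 12.4% in degron libraries. Both low values came from replicate 1, and the log2 fold change of 0.27 had a wide interval, from -0.59 to 1.12 (adjusted p = 0.883). Without both replicate 1 libraries the sign turned, to -0.11 (interval -0.14 to -0.07, adjusted p = 0.000111), and this was the second segment called there. Ighd1-1 and Ighd4-1 are large shares of the same total, so these calls are not independent. Each line was a single sequencing run in that fit, so its p-values rest on the spread within a run. Of the D junctions alone, Ighd4-1 held 10.4% ± 6.35 in parental and 11.9% ± 2.06 in degron libraries (n = 3 each, exact permutation p = 1).

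Within single baits the lines overlapped in both genes. With the Ighj4 bait, Ighd4-1 took 2.75%, 3.78% and 4.05% of D junctions in parental and 4.57%, 4.07% and 3.58% in degron libraries, whereas with Ighj2 it took 18.3% and 18.4% in parental replicates 2 and 3 and 17.2% and 17.0% in degron replicates 2 and 3. In replicates 2 and 3 the bait thus moved Ighd4-1 several times further than the line did. Parental replicate 1 stood apart even within Ighj2, with 6.80% Ighd4-1 from 16720 junctions. Ighd1-1 in Ighj4 joints was 84.7%, 80.1% and 80.4% of D junctions in parental and 79.4%, 81.3% and 82.8% in degron libraries, which overlapped (exact permutation p = 0.8). In replicates 2 and 3 Ighd1-1 was higher in the degron line in each of the 4 baits, for instance 70.0% and 70.2% against 71.6% and 72.2% in Ighj2. Degron replicate 1 went the other way, with 73.6% in Ighj3 against 75.1% and 75.0% in the parental line.

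**Figure D3:**
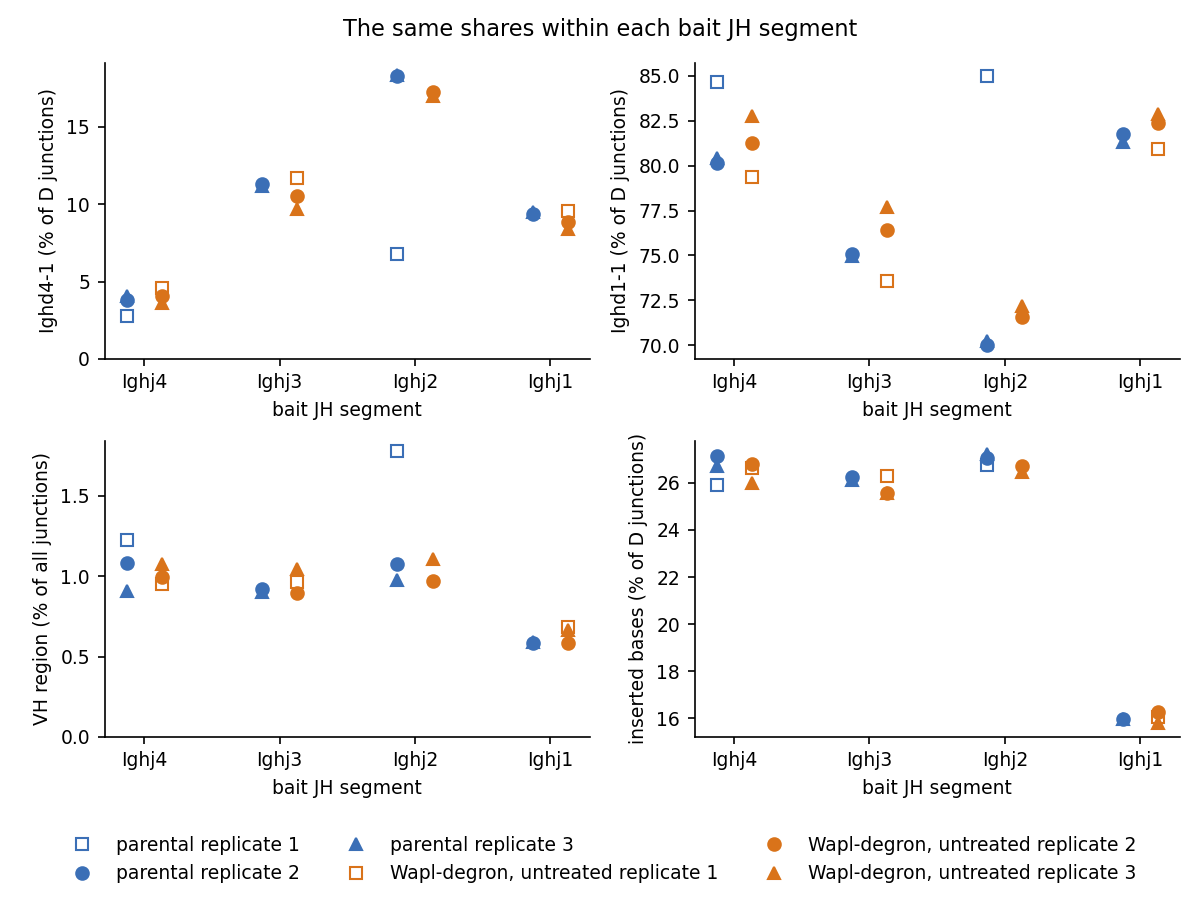
Points are single libraries, with the bait JH segment on the x axis and, by panel, the percent of D junctions in Ighd4-1, in Ighd1-1, the percent of all junctions in the VH region and the percent of D junctions with inserted bases. Inserted bases lie at 15.8% to 16.3% with Ighj1 and at 25.6% to 27.2% with the others in both lines. The y axes for Ighd1-1 and for inserted bases do not start at 0.

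The libraries of the lines overlapped in each of the 25 D gene segments tested. Ighd2-3, the most used of the 6 Ighd2 genes, held 6.19%, 5.29% and 5.25% of all junctions in parental and 5.76%, 5.16% and 4.75% in degron libraries (log2 fold change -0.09, interval -0.27 to 0.09, adjusted p = 0.883). The Ighd2 family as a whole took 9.80% to 11.004% against 9.18% to 10.4%, so the groups overlapped. Ighd3-2, a gene between Ighd4-1 and the Ighd2 cluster, ran with Ighd4-1, at 0.276%, 0.486% and 0.501% of D junctions in parental and 0.301%, 0.453% and 0.436% in degron libraries, again low in both replicate 1 libraries. The 8 Ighd5 genes have heptamers that differ from CACAGTG in all but Ighd5-1. Together the 7 Ighd5 segments tested took 0.0115% to 0.0303% of junctions in parental and 0.0247% to 0.0290% in degron libraries. The Ighd6 genes took 0.198% to 0.213% and 0.167% to 0.210%.

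By family, 0 segments passed in either direction: 0 of 2 Ighd1, 0 of 9 Ighd2, 0 of 3 Ighd3, 0 of 2 Ighd4, 0 of 7 Ighd5 and 0 of 2 Ighd6 segments. Their median log2 fold changes were 0.07, -0.05, -0.09, 0.31, -0.13 and -0.07, beside -0.03 for all segments. Beyond Ighd1-1 the 3 annotated D genes Ighd3-1, Ighd5-1 and Gm16968 were almost unused, with Ighd3-1 at no more than 0.00498% of D junctions in any of the 6 libraries. Inversional joints, which RAG scanning yields rarely, were 0.0706%, 0.0990% and 0.0836% of D junctions in parental and 0.0969%, 0.0941% and 0.0877% in degron libraries (exact permutation p = 0.5).

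**Figure D4:**
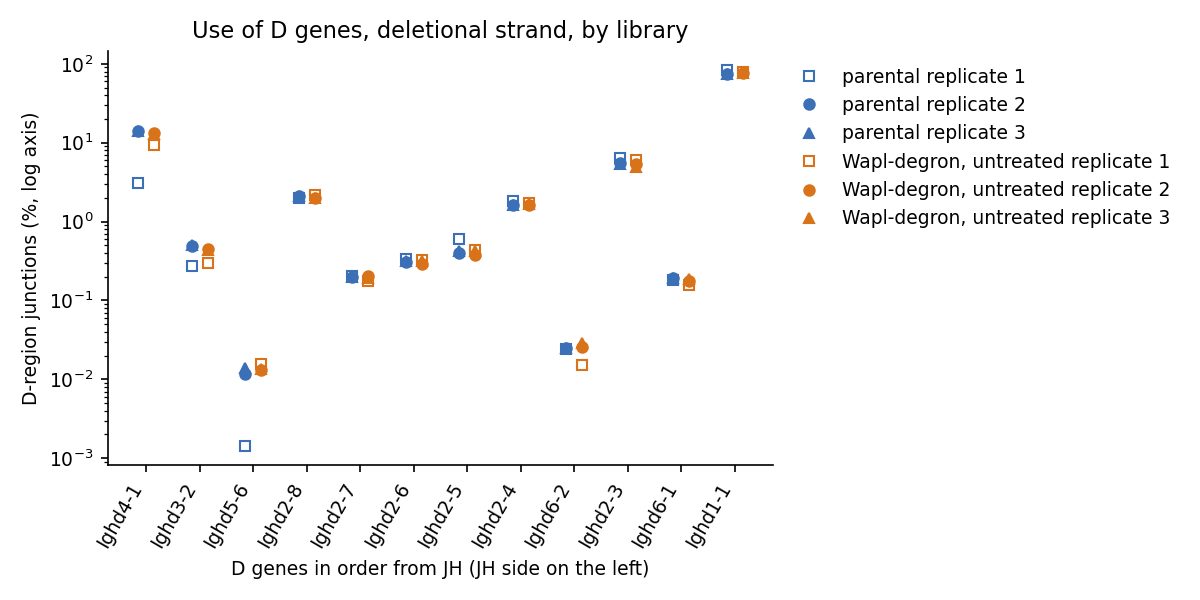
Points are libraries, with the D genes in their order from JH on the x axis and the percent of D-region junctions on a log y axis; genes above 0.01% in any library are shown, and a library with 0 has no point. The profile from Ighd4-1 to Ighd1-1 is shared by both lines, and the open squares (replicate 1) of Ighd4-1 and Ighd3-2 lie low.

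A zone just upstream of Ighd1-1 collected joints outside any annotated gene. RAG that scans past Ighd1-1 can cut at cryptic signals there. IGCR1, a control element with CTCF sites that halt cohesin, is known to lie between Ighd1-1 and the VH genes. On the deletional strand the interval from Ighd1-1 to Ighd3-1 held 0.382%, 0.398% and 0.394% of all junctions in parental and 0.358%, 0.358% and 0.348% in degron libraries. The groups did not overlap and the degron line was lower in 3 of 3 libraries, but the log2 fold change of -0.15 (interval -0.38 to 0.08) did not pass (limma adjusted p = 0.883). It was -0.16 without both replicate 1 libraries and -0.13 within the Ighj4 bait, but turned to 0.04 with each distinct junction counted once, 0.13 with distinct fragments and 0.06 within the Ighj1 bait, and passed in none of these. In both lines at least 99.5% of these joints lay within the first 4 kb. Within that zone the fourth kilobase held most, with 526, 1479 and 1397 junctions in parental and 460, 1718 and 1468 in degron libraries. Per 100000 junctions of the library these were 241, 228 and 220 in parental and 193, 197 and 180 in degron libraries. The scaled values did not overlap and were not tested on their own. The fifth kilobase held 0 to 3 junctions.

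The most used position of the zone, at 114722367, held 757 of the 12716 junctions of the interval in the 6 libraries. It lies nearer to Ighd1-1 than the fourth kilobase does. This position is shown with the most used position between D and VH (379 of the 1056 junctions of its bin). Each lies directly beside the heptamer CACAGTG, shown in capitals on the coding strand.
Upstream of Ighd1-1 (chr12:114722337-114722386): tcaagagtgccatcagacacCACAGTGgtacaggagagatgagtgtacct
Between D and VH (chr12:114811108-114811157): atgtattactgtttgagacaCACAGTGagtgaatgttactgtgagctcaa
The second stretch matches that of Ighv5-2 at 42 of 50 positions and that of Ighv2-2 at 35. Its bin held 0.0408%, 0.0337% and 0.0304% of junctions in parental and 0.0260%, 0.0309% and 0.0276% in degron libraries. These overlapped, with a log2 fold change of -0.23 (interval -0.74 to 0.28, adjusted p = 0.883). It was -0.13 without both replicate 1 libraries and 0.64 within the Ighj2 bait. The interval between Ighd2-3 and Ighd6-1 was also lower in 3 of 3 degron libraries, at 0.0164%, 0.0201% and 0.0166% against 0.0284%, 0.0233% and 0.0219% (log2 fold change -0.40, interval -0.98 to 0.18, adjusted p = 0.883). Its log2 fold change was -0.31 without both replicate 1 libraries, -0.11 with distinct fragments and -1.18 within the Ighj4 bait.

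VH joints were a small part of all junctions in both lines. The VH region held 1.27%, 0.918% and 0.857% in parental and 0.797%, 0.854% and 0.977% in degron libraries, with overlap and means of 1.02% ± 0.224 and 0.876% ± 0.0918 (SD, n = 3 each, exact permutation p = 0.4). The difference of -0.14 percentage points was 0.03 without both replicate 1 libraries. Within the Ighj4 bait the values were 1.23%, 1.08% and 0.911% against 0.952%, 0.998% and 1.07%. With the Ighj1 bait they were lower in both lines, at 0.583% and 0.588% in parental and 0.685%, 0.584% and 0.668% in degron libraries.

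The proximal genes, those next to the D cluster, gave most VH joints. Ighv5-2, of the Ighv5 family and the leading VH gene, held 0.527%, 0.384% and 0.359% of all junctions in parental and 0.328%, 0.349% and 0.397% in degron libraries (log2 fold change -0.14, SE 0.145, interval -0.46 to 0.18, adjusted p = 0.883). As a share of VH junctions it was 41.5%, 43.01% and 43.06% in parental and 42.0%, 41.8% and 41.3% in degron libraries (exact permutation p = 0.3). In replicates 2 and 3 alone these shares did not overlap, though so few libraries separate readily. Within baits the difference in this share was -0.67 points in Ighj1, -1.71 in Ighj2 and -0.80 in Ighj4, but 2.15 in Ighj3. Ighv2-2, of the Ighv2 family, held 0.238%, 0.188% and 0.168% against 0.156%, 0.170% and 0.198% (log2 fold change -0.09, interval -0.44 to 0.27). Without both replicate 1 libraries the log2 fold changes were 0.0021 for Ighv5-2 and 0.04 for Ighv2-2. For both genes parental replicate 1 was highest and the other libraries were mixed.

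The next proximal genes showed the same picture. Ighv5-4 held 0.0637% to 0.0940% in parental and 0.0520% to 0.0753% in degron libraries, Ighv2-3 held 0.0485% to 0.0729% and 0.0442% to 0.0536%, and Ighv5-6 held 0.0375% to 0.0587% and 0.0302% to 0.0515%. Their log2 fold changes were -0.12, -0.12 and 0.05 and none passed. Together with Ighv5-2 and Ighv2-2 these 5 genes gave 78.1%, 80.3% and 80.6% of VH junctions in parental and 79.2%, 79.2% and 80.4% in degron libraries (exact permutation p = 0.9). By family, 0 of 10 Ighv2, 0 of 12 Ighv5, 0 of 15 Ighv1, 0 of 4 Ighv8 and 0 of 21 segments of other families passed, and their median log2 fold changes were 0.17, 0.04, 0.40, -0.36 and -0.22. The Ighv1 median rested on rare segments: the family took 0.0215% to 0.0298% of junctions in parental and 0.0204% to 0.0286% in degron libraries.

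Joints in the distal part of the VH region, beyond its midpoint, were rare in both lines. Annotated genes and sites without a gene there together gave 4.73%, 4.78% and 3.75% of VH junctions in parental and 4.95%, 4.46% and 2.86% in degron libraries, a difference of -0.33 percentage points that was within the spread (exact permutation p = 0.7). The tested distal genes alone held 0.0394%, 0.0326% and 0.0249% of all junctions in parental and 0.0298%, 0.0310% and 0.0207% in degron libraries. Of the segments tested, 46 proximal VH genes and 16 distal ones had median log2 fold changes of 0.05 and 0.20, with 0 called in either set. With IAA and Dox the distal share in the degron line was 58.4%, 57.9% and 57.4%, and the untreated single-Igh line had 4.43%, 3.85% and 3.70%. In those treated libraries the VH share was 3.499%, 3.27% and 4.63% of junctions, Ighd4-1 held 63.0%, 59.7% and 61.2% of D junctions and Ighd1-1 22.9%, 25.1% and 23.1%. In treated replicate 2, 28.4% of lines repeated a read name already listed, against at most 0.111% in the 6 libraries compared here.

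The 3 VH segments most used after IAA and Dox were rare in both untreated lines. Ighv8-12, a distal gene, held 1, 21 and 21 junctions in parental and 5, 19 and 8 in degron libraries, against 0.178% to 0.241% of junctions with IAA and Dox. The other two are sites without an annotated gene, the nearer one proximal to the midpoint and the farther one distal, each beside the heptamer CACAGTG, shown in capitals, and their stretches match at 44 of 50 positions.
Nearer site (chr12:115850424-115850473): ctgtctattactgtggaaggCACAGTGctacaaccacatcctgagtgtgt
Farther site (chr12:116930070-116930119): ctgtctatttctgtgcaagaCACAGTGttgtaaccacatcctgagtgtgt
The nearer site held 0.00780%, 0.00664% and 0.00820% of junctions in parental and 0.00797%, 0.00814% and 0.00908% in degron libraries (log2 fold change 0.18, interval -0.59 to 0.95), against 0.155% to 0.182% with IAA and Dox. The farther site held 23, 9 and 12 junctions in parental and 2, 7 and 11 in degron libraries. As shares these did not overlap, at 0.00139% to 0.0105% and 0.000803% to 0.00135%, and the log2 fold change of -1.10 (interval -2.92 to 0.72) did not pass (adjusted p = 0.883). Parental replicate 1 held 23 of these junctions, and the log2 fold change was -0.64 without that library and -1.60 without parental replicate 2. With IAA and Dox it held 0.202% to 0.277%. All 10 unannotated VH sites tested had a CAC-initial heptamer within 6 bases of their most used position, with at least 6 of 7 letters of CACAGTG, whereas 5.80% of all windows of that width in the VH region hold a CAC-initial heptamer with at least 5.

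**Figure D5:**
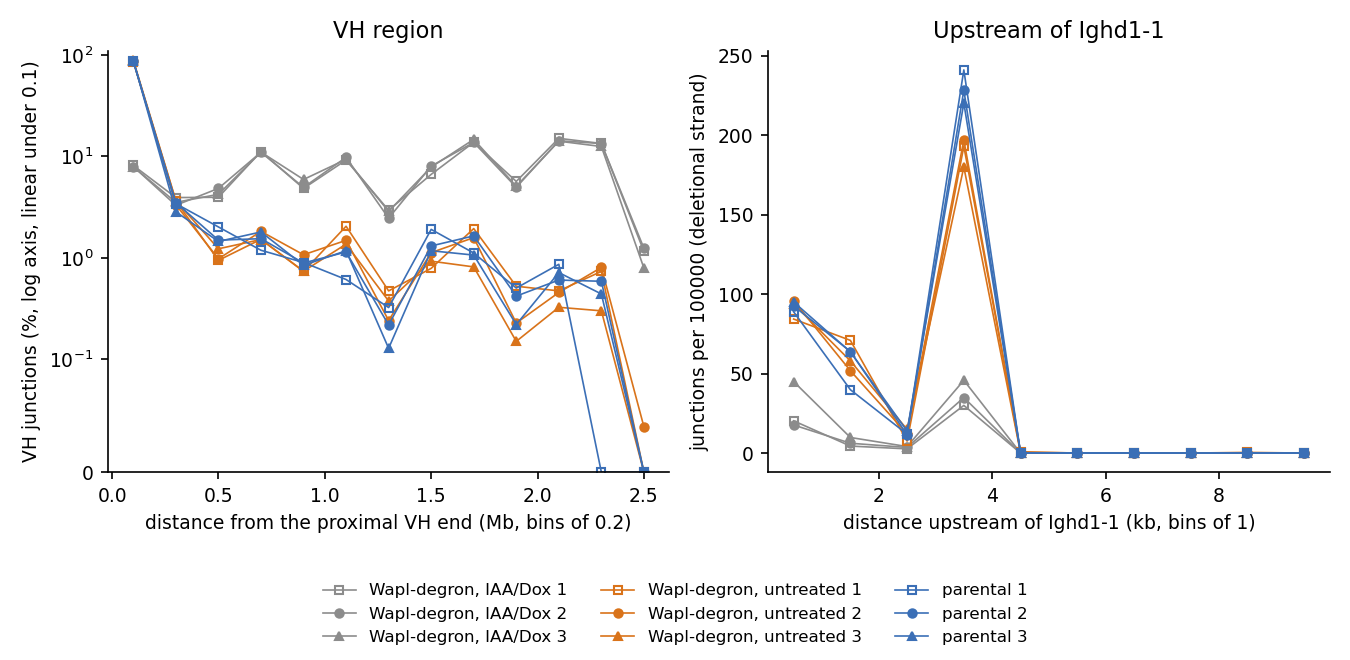
Left, percent of VH junctions in bins of 0.2 Mb by distance from the proximal end of the VH region (log axis, linear under 0.1), and right, deletional junctions per 100000 in bins of 1 kb upstream of Ighd1-1, each line being 1 library. The first VH bin holds 86.2% to 88.6% of VH junctions in the 6 untreated libraries and 7.91% to 8.15% with IAA and Dox, and the peak upstream of Ighd1-1 ends after the fourth kilobase in all 9.

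Joint structure was compared through the query ends of the bait and prey alignments, which show inserted bases, a direct joint, or overlapping ends (microhomology). Of D junctions, 26.0%, 23.9% and 24.0% had inserted bases in parental and 20.3%, 23.7% and 23.4% in degron libraries. These did not overlap and gave means of 24.6% ± 1.16 and 22.5% ± 1.88 (SD, n = 3 each). The exact permutation test gave p = 0.1, which is as low as this design allows, and 0.750 after adjustment. Overlapping ends were 47.1%, 54.1% and 53.9% against 54.7%, 54.1% and 54.6%, also without overlap, although the nearest libraries both stood at 54.1% (exact permutation p = 0.1, or 0.750 adjusted). These were 2 of the 21 shares (9.52%). Without both replicate 1 libraries the differences were -0.41 percentage points for inserted bases and 0.35 for overlapping ends. Both signs turned with each distinct junction counted once, to 0.42 and -1.01 points, and with distinct fragments, to 0.80 and -2.18 points. The bait moved with this result: inserted bases were between 15.8% and 16.3% of Ighj1 joints in all 5 libraries that held this bait, and 58.8% of the junctions of degron replicate 1 but none of parental replicate 1 came from Ighj1. The part of the bait mix in the pooled difference was not tested beyond the values within a bait. Within the Ighj4 bait, inserted bases were 25.9%, 27.1% and 26.7% in parental and 26.6%, 26.8% and 26.0% in degron libraries, with overlap. Within Ighj2 they were 26.8% to 27.2% in 3 parental and 26.4% to 26.7% in 2 degron libraries, without overlap. Overlapping ends in Ighj4 joints were 46.4% to 46.6% and 47.0% to 47.4%, still without overlap (exact permutation p = 0.1, adjusted p = 0.971 over 68 tests within baits, of which 12, or 17.6%, had no overlap). In Ighj3 joints the degron libraries were likewise above the parental ones, in Ighj1 joints they were below, at 60.9% to 61.3% against 61.3% to 61.4%, and in Ighj2 joints they overlapped.

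The ends of the 5 segments printed first were described by 7 measures each, without a test. The libraries of the lines did not overlap in 6 of these 35 measures (17.1%). At Ighd1-1, 42.6%, 42.8% and 42.7% of deletional joints kept the last base of the gene in parental and 44.3%, 42.7% and 42.6% in degron libraries, and a mean of 2.31, 2.46 and 2.46 bases against 2.28, 2.45 and 2.47 was removed. Ighd4-1 lost 1.75, 1.77 and 1.75 bases in parental and 1.63, 1.78 and 1.80 in degron libraries. In joints of Ighv5-2, 97.1%, 95.3% and 97.2% held bases between VH and JH in parental and 95.1%, 96.2% and 96.8% in degron libraries, with a mean of 11.8 to 12.7 bases against 11.9 to 12.3. A complete V(D)J joint holds its D segment there. Ighv5-2 ends lost 1.34, 1.57 and 1.59 bases in parental and 1.67, 1.67 and 1.84 in degron libraries, without overlap. In joints of Ighv2-2, the inserted bases averaged 11.9, 12.6 and 12.7 in parental and 13.2, 13.2 and 13.4 in degron libraries, also without overlap, and 97.8% to 99.04% against 96.5% to 96.96% held any. The remaining 3 such measures were the inserted, direct and overlapping shares of Ighd2-3 joints, with inserted bases at 30.5% to 31.9% in parental and 26.8% to 30.04% in degron libraries. Measures that are apart in all 6 libraries must stay apart when libraries are left out. Leaving out both replicate 1 libraries is therefore no test of these 6 measures. Without those libraries the inserted share of Ighd2-3 joints was 30.5% to 30.9% in parental and 29.8% to 30.04% in degron libraries. Fewer libraries separate more readily, so separation in that setting was not read as a difference between the lines. Further measures of Ighd1-1, Ighd2-3, Ighd4-1 and Ighv2-2 joints also came apart there. Overlapping ends of Ighd4-1 joints, for instance, were 42.5% to 42.7% in parental and 42.2% to 42.4% in degron libraries. Within the Ighj4 bait all 6 measures overlapped between the lines. Ighv5-2 ends there lost 1.14 to 1.41 bases in parental and 1.37 to 2.60 in degron libraries, and the inserted bases of Ighv2-2 joints averaged 12.05 to 13.8 and 11.7 to 13.97, from only 65 to 463 joints in a library. Within the Ighj2 bait the inserted bases of Ighv2-2 joints did not overlap, at 10.4, 12.6 and 12.4 in parental and 12.96 and 13.1 in degron libraries, the lowest from 56 joints. The 3 measures of Ighd2-3 did overlap there, but for 2 of them only through parental replicate 1, with 695 joints. Its inserted share was 27.9%, against 33.0% and 32.6% in the other parental and 32.1% and 32.2% in degron libraries. Its direct share was 19.3%, against 15.4% and 15.9% in the other parental and 16.4% and 16.1% in degron libraries.

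The D segment inside VH joints could be read from those bases by asking for at least 8 bases shared with an annotated D gene. A D was matched in 80.2%, 73.4% and 74.7% of deletional VH joints in parental and 76.0%, 75.6% and 76.3% in degron libraries. Among the matched joints Ighd1-1 made up 63.5%, 69.3% and 69.0% in parental and 68.9%, 70.5% and 72.9% in degron libraries, and the Ighd2 family 34.1%, 27.8% and 28.7% against 28.6%, 26.6% and 25.0%. The groups overlapped in both. In replicates 2 and 3 alone they did not, but so few libraries separate readily. The 2 shares make up nearly all matched joints, so they are not independent. Within the Ighj4 bait Ighd1-1 made up 64.3%, 61.7% and 60.9% in parental and 50.9%, 63.0% and 70.3% in degron libraries, with overlap. There the Ighd2 family, at 33.6%, 35.2% and 36.6% against 44.0%, 34.3% and 28.8%, overlapped too. These shares were not tested. With all baits Ighd4-1 made up 1.58%, 1.89% and 1.63% against 1.49%, 1.92% and 1.45%. Because Ighd4-1 is the shorter gene, a minimum of 8 bases finds it less readily than Ighd1-1, so these shares were read between lines and not against the D use in DJH joints. The untreated single-Igh line had 56.4% to 56.9% Ighd1-1 and 40.9% to 41.4% Ighd2 in its VH joints over all baits, and Ighd2-3 held up to 12.4% of all its junctions. Its replicate 1 held the Ighj2 bait alone. Within the Ighj4 bait its replicates 2 and 3 had 45.3% and 45.9% Ighd1-1 and 52.1% and 51.3% Ighd2 in VH joints.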

How the data were processed

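LAM-HTGTS junction lists of 6 libraries were compared, with 6 more for scale. The deposited lists give 1 junction per line, with prey position, strand and query ends, per the file headers, which also name 11 read filters including duplicates. Alignment was to mm9 with Bowtie2, per the submitters' processing notes, in a version not given in the sources used here. No molecular identifiers are present, so counts made here by counting lines may list 1 joining event repeatedly. The members and lists were chosen with earlier results of these data known.

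Junctions were assigned to annotated D and VH genes with 20 bp on each side, intervals between D genes, 5 kb bins, or clusters with gaps of at most 20 bp. The bait JH was the gene whose span, widened by 60 bp, held the bait end. Of 141 Igh genes, 140 had a RefSeq symbol. Segments with at least 10 junctions were tested with limma 3.58.1 (voom, prior count 0.5, total junctions as library size) in R 4.3.3, with Benjamini-Hochberg adjustment. Shares were tested with two-sided exact permutation tests (scipy 1.17.1). Named were the 3 most used segments of each class in either line, those called with the largest changes, set D and proximal VH genes, and the 3 VH segments most used with IAA and Dox. On simulated counts for this comparison (115 segments, 20 changed 4-fold, spread 0.3) 76% were recovered over 5 draws, with 4 other calls in all. The simulated libraries had a common spread, no repeated lines and no differences in bait mix. Because the real libraries differ in this, the rate does not measure what the comparison here could detect.

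Alternatives were other library sizes, distinct junctions, minimum counts, window sizes (gene shares only), a quasi-binomial model, leaving out libraries, run and replicate blocks. Chosen after seeing the data were fits without both replicate 1 libraries, within 1 bait, and with distinct fragments. Same-numbered libraries deviated together over segments with correlations of 0.24, 0.33 and 0.11, against -0.29 to 0.10 for pairs with different numbers. The highest of the latter was close to the lowest same-numbered one. Deviations were taken from means of 3 libraries, so these correlations are not independent, and replicate 1 was the shallowest in both lines. This check from the data, not the labels, therefore cannot decide whether replicate numbers pair the libraries. Libraries shared no read name and none was merged. A chi-square test of their line counts cannot settle whether 2 libraries differ, since lines may repeat an event.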

Additional observations from a re-analysis of the deposited data

How the results depend on the processing

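With the replicate block, 0 of 115 segments were called; for shares the paired sign-flip test allows no p below 0.25, so it says nothing about their stability. The count of called segments was also 0 in each other refit of the segments, which did not include other windows, except without both replicate 1 libraries (2) and with segments of at least 1 junction (1), and 0 to 0 with each library left out in turn. Ighd1-1 turned to 0.0298 and 0.0293 in these exceptions and Ighd4-1 to -0.11 in the first (log2). No sequencing run held both lines, so no value within a run exists, and run as a random block gave 0 calls. The D share difference of -0.73 points became -4.61 with distinct junctions, 0.13 of D and VH junctions, -1.80 with distinct fragments and -1.94 with Ighj4 alone. The VH share difference became 0.69 with distinct junctions and 0.27 with distinct fragments. The Ighv5-2 share of VH junctions differed by -0.83, by -1.71 in Ighj2 and by 2.15 in Ighj3. Inserted bases differed by -2.16, by 0.42 and 0.80 with distinct junctions and fragments, 0.059 with Ighj1 and -0.13 with Ighj4. Leaving out each library in turn gave -1.05 to -0.32 for the D share, -0.22 to -0.01 for the VH share, -0.76 to 0.28 for the distal share, -2.19 to 3.36 for Ighd4-1, -2.67 to 2.45 for Ighd1-1, -1.34 to -0.57 for Ighv5-2 and -2.76 to -1.08 for inserted bases. Signs changed in 46 of 276 alternatives for named segments and 59 of 295 for shares. The cause was not tested. Distinct junctions numbered 5952 in parental replicate 1 and 16097 to 36200 in the others, which limits rare segments most.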

Other observations

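The places listed on other chromosomes were picked by their total over the 6 libraries, and each held junctions in all 6. That choice favours places shared by both lines. A place on chromosome 6 (70670001 to 70680000) had its most used position at Igkj1, a J segment of the Igk light chain locus, another RAG target. That position held 143 of its 1374 junctions. The whole place took 42.2, 36.9 and 36.0 junctions per 100000 in parental and 39.9, 39.7 and 45.9 in degron libraries, a value picked after it was seen, with the groups overlapping. With IAA and Dox it was 33.6 to 42.5. A site on chromosome 7 within Fgfr2 and Tacc2 in the annotation had 1259 of its 1551 junctions at 1 base position, 137735087. It held 24.8, 57.8 and 61.8 per 100000 in parental and 54.1, 33.6 and 37.9 in degron libraries, and 2.65, 228 and 302 with IAA and Dox.

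Degron replicate 1 had the lowest depth of its line but 59 VH genes with at least 1 junction, against 33 in parental replicate 1 and 69 to 74 in the 4 other untreated libraries of these lines. Treated libraries, with 113305 to 226216 junctions, had 98 to 100.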
